A study of Mus musculus with 12 samples.

Results

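Motile cilia genes encode the parts of the beating cilium and the factors that switch them on in multiciliated cells of the airway. A list of 40 such genes was followed across the study, each read from the probe set with a single gene symbol and the highest mean over the 12 arrays. All 40 were measured, of 19937 genes with such a probe set. Whole lung of 12 Balb/c mice was profiled on Affymetrix mouse Gene 1.0 ST arrays, with 1 array for each mouse and 3 mice in each of 4 groups. The study asked how airway barrier, mucin and inflammasome genes differ between forms of allergic lung inflammation raised with house dust mite (HDM) extract, a mixture of the allergens Der f and Der p dosed in development units (DU). Control mice received PBS by the nose. In the eosinophilic group, HDM was first injected 3 times into the peritoneum, at 0.75 DU of each allergen on 1.5 mg of Al(OH)3, an adjuvant, and then given by the nose on days 26 to 28 at a similar dose in 50 µl. Mixed mice received 0.75 DU of each allergen and neutrophilic mice 7.5 DU of each, by the nose alone and in 4 weekly applications of 50 µl. All groups share the strain and the tissue, and the mice's age and sex were not given in the sources used here. Each label of an HDM group names the inflammation that its protocol is meant to raise. The control and intranasal groups received no alum, so route, adjuvant and schedule cannot be told apart between the eosinophilic group and the others.

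A multiciliated cell carries many motile cilia whose beat moves mucus out of the airway. Inside each cilium, the axoneme, a ring of doublet microtubules surrounds a central pair. Dynein arms on the doublets, in an outer and an inner row, hydrolyse ATP and slide neighbouring doublets, while radial spokes and nexin links convert that sliding into bending. Loss of many of these genes in people causes primary ciliary dyskinesia, with chronic airway infection and, for some, reversed placement of organs. Mcidas, with Gmnc, commits a progenitor to the multiciliated state, and Foxj1 with RFX factors such as Rfx2 and Rfx3 then switches on the genes of the axoneme.

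RFX factors bind the X-box, an element with a pair of inverted arms, so the promoters of the members were searched for its arm as GTTGCCA or GTTGCTA, on both strands. A forkhead word, TGTTTAC, of the kind bound by Foxj1 and other forkhead factors was searched as well. RefSeq promoters of build GRCm38.p6, from 250 bases before a start site to 50 after it, were at hand for 31 of the 40 genes, as 34 promoters. At least 1 of the 2 forms of the arm occurred in 16 of these 34 promoters, 47.1%, and in 7.63% of 32851 promoters of all genes. GTTGCCA occurred in 8 of the 34 and in 4.38% of all, and GTTGCTA in 11 and in 3.66%. The forkhead word occurred in 2, those of Ak7 and Sntn, which is 5.88% of the 34 beside 3.65% of all. The 2 forms of the arm differ in 1 base, and the promoters of Drc1, Hydin and Lrriq1 held both. Whether both forms lay in 1 X-box there was not checked. A match of these letters is a description of the window and not a site in use.

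The promoters of 4 members that lay well below control in the eosinophilic and neutrophilic groups are shown, chosen after their values were seen. That of Sntn lies at chr14:13670626-13670925 (+ strand), Dnah12 at chr14:26691304-26691603 (+), Dnah5 at chr15:28203516-28203815 (+) and Dnah6 at chr6:73221582-73221881 (- strand), each 300 bases. They read 5′ to 3′ along the gene, and capitals mark the searched words, which for reverse matches appear as TAGCAAC or GTAAACA.
Sntn: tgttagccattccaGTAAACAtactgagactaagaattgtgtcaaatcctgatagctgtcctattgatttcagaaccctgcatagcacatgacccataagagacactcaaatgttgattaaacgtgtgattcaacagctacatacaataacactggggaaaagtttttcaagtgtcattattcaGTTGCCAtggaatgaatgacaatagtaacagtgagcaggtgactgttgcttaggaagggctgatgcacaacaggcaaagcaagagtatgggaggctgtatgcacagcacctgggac
Dnah12: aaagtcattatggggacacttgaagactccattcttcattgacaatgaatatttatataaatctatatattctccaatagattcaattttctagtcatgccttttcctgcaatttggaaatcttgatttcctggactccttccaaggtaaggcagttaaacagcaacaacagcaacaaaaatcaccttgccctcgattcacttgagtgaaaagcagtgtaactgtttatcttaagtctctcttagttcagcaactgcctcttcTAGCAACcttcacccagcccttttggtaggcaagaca
Dnah5: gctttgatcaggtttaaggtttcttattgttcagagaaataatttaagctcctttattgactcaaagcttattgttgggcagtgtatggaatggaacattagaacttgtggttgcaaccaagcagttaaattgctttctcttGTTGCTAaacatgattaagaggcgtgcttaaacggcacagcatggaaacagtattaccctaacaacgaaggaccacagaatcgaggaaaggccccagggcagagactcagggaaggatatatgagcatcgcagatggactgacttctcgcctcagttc
Dnah6: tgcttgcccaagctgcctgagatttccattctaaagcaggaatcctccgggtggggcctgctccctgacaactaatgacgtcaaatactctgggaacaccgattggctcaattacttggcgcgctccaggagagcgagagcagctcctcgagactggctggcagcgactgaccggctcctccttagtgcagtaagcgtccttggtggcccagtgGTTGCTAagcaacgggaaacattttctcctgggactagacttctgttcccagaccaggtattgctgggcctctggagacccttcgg
In the Sntn promoter GTTGCCA began 66 bases upstream of the start site, and the forkhead word, on the reverse strand, 236 bases upstream. GTTGCTA began 108 bases upstream in Dnah5 and 36 bases upstream in Dnah6. In Dnah12 it lay on the reverse strand, 14 bases downstream of the start. For Dnah5 and Dnah6 the start site used is not the outermost start of the gene record.

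Values are log2 intensities, so a difference of 1 is a 2-fold difference, and a level says nothing about the level of another probe set. The array taken from eosinophilic mouse 7 differed strongly from the others. Its values had an SD over all genes of 0.995 and correlated with the median of the other arrays at r = 0.356, against SDs of 1.77 to 2.04 and r of 0.956 to 0.980 on 9 arrays. The arrays of eosinophilic mouse 9 (SD 1.52, r = 0.863) and neutrophilic mouse 23 (SD 1.51, r = 0.868) lay between. Defining lung markers were almost dark on the array of mouse 7: the summed linear intensity of 6 alveolar type 2 genes was 579.3 there and at least 22020 on every other array. On arrays of small SD bright probe sets read low and dim ones high. Across all genes the change against control sloped with mean level, by -0.42 per log2 unit in the eosinophilic group (-0.17 without mouse 7), -0.14 in the neutrophilic group and -0.027 in the mixed group. Results are given with all 12 arrays and, for those that mouse 7 can move, also without it. Members are also set beside genes on the same side of the median level. The 3 comparisons with control share the same 3 control arrays.

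Few of the cilia genes passed the test against control. Sntn was lower than control in the eosinophilic and neutrophilic groups, and several dynein heavy chains lay below control in both, while the Foxj1 values of all groups overlapped. Of the 40 members, 1 passed the test (limma, adjusted p under 0.05 over all genes) in the eosinophilic group, where 0.421% of all genes were called lower and 0.0752% higher. None passed in the mixed group, where 0.145% were called lower and 0.326% higher, and 1 passed in the neutrophilic group, where 1.45% were called lower and 0.662% higher. These calls were all lower. Without mouse 7 the count of members called lower stayed at 1 in the eosinophilic group (0.883% of all genes called lower), stayed at 0 in the mixed group (1.57%, with 1.41% called higher) and became 4 in the neutrophilic group (7.23%, with 2.24% called higher). In the mixed group 2 members had an unadjusted p under 0.05 with all arrays and 3 without mouse 7, all lower (of all genes, 5.05% were lower and 2.89% higher with all arrays, 8.56% and 4.35% without mouse 7). In whole lung, fewer ciliated cells and less RNA per ciliated cell cannot be told apart.

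**Figure D1:**
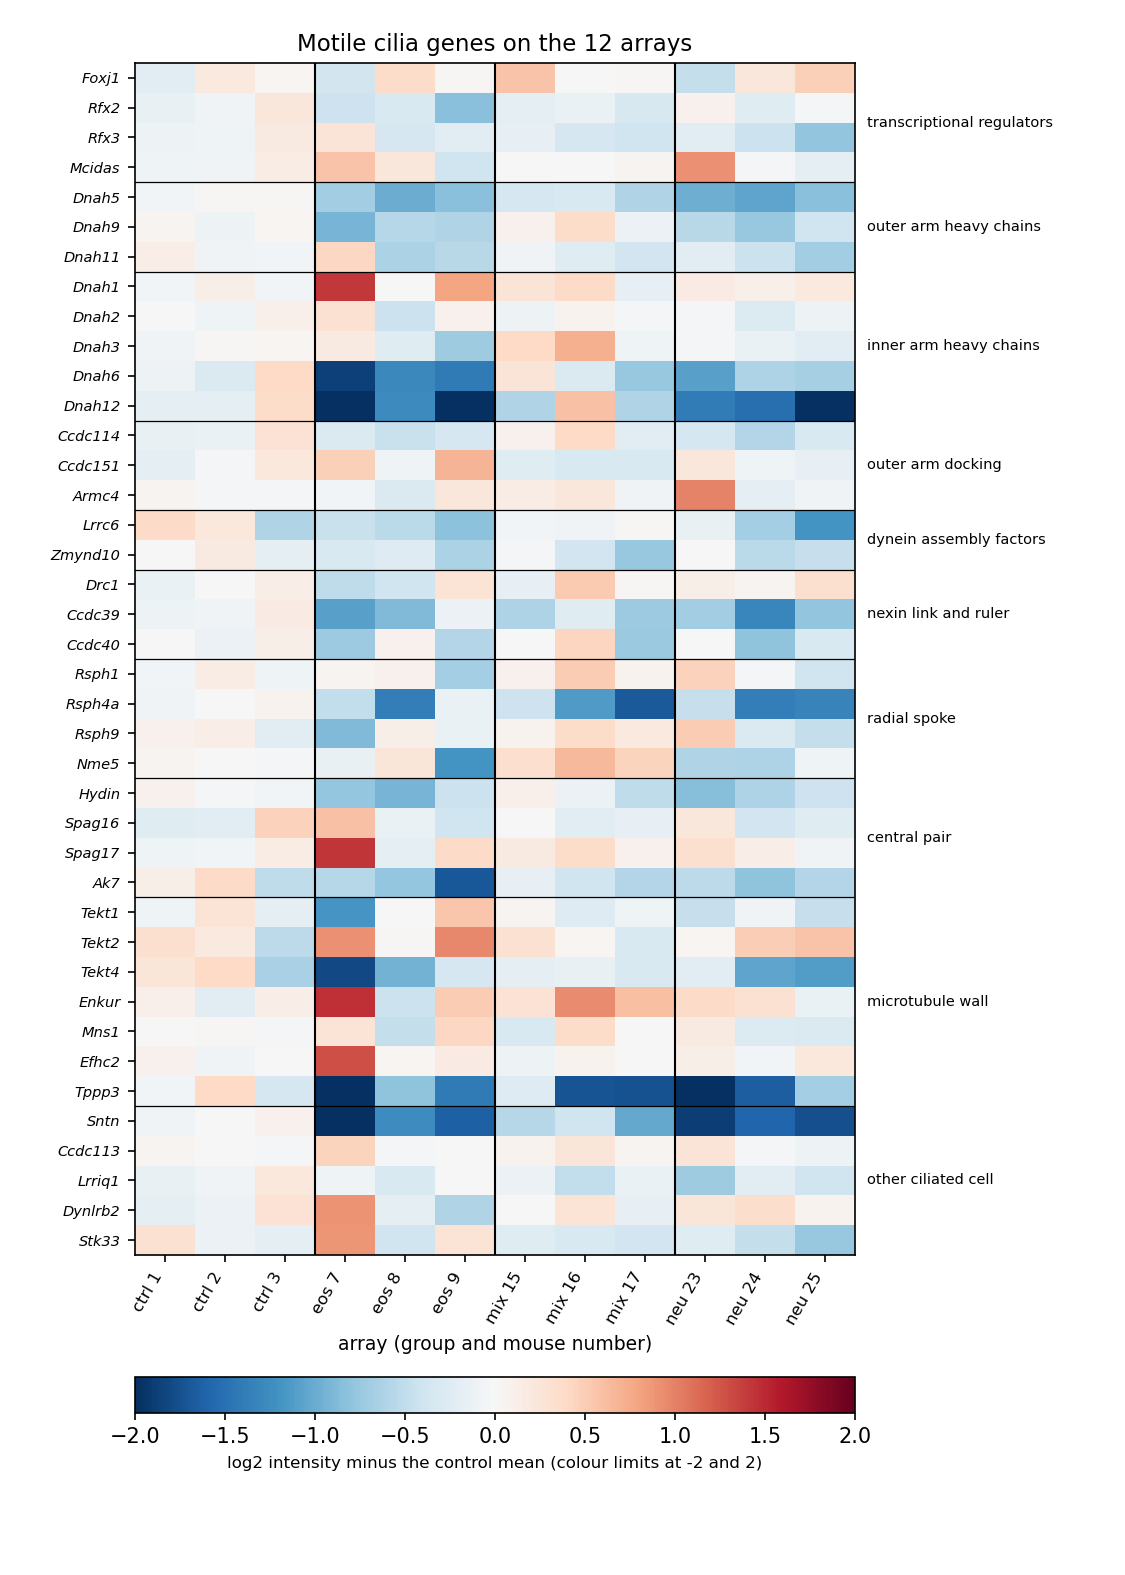
Log2 intensity of each of the 40 genes (rows, ordered by role) on each of the 12 arrays (columns, by group and mouse number), minus the mean of the 3 control arrays. Sntn, Dnah12, Dnah5 and Dnah6 are blue, below control, in all 6 eosinophilic and neutrophilic mice, while Dnah1, Spag17, Enkur and Efhc2 are red on the array of eosinophilic mouse 7.

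Sentan, the product of Sntn, sits at the tip of the cilium and marks mature ciliated cells. Its log2 intensity was 6.94, 7.00 and 7.10 in the control mice. It was 4.93, 5.75 and 5.38 in eosinophilic mice 7, 8 and 9, 6.45, 6.62 and 6.0 in the mixed mice and 5.13, 5.43 and 5.26 in the neutrophilic mice. Every HDM mouse lay below every control mouse, and the eosinophilic and neutrophilic mice lay below every mixed mouse. Against control Sntn fell by 1.66 in the eosinophilic group (SE 0.28, 3.16-fold lower, adjusted p = 0.0462) and by 1.74 in the neutrophilic group (SE 0.28, 3.34-fold lower, adjusted p = 0.0114). With mouse 7 left out the eosinophilic difference was -1.45 (SE 0.27, 2.73-fold, adjusted p = 0.0232), and the neutrophilic adjusted p was 0.00101. The mixed difference was -0.66 (SE 0.28, adjusted p = 0.545; without mouse 7, SE 0.24 and adjusted p = 0.212). Sntn was also the member that passed the F test for any difference among the 4 groups (adjusted p = 0.0257), a test passed by 0.883% of all genes. Leaving out control 1, 2 or 3 or eosinophilic mouse 9 ended the eosinophilic call of Sntn (adjusted p = 0.267, 0.233, 0.119 and 0.118), and leaving out control 1, control 2 or neutrophilic mouse 25 ended the neutrophilic one (0.0696, 0.0747 and 0.0594). Quantile normalization ended both (adjusted p = 0.117 and 0.0821), and median centring (0.0557) or a fit of the compared groups alone (0.329) ended the eosinophilic one. Leaving aside 1 setting with a lone eosinophilic array, the adjusted p ran from 0.00154 to 0.329 for the eosinophilic difference of Sntn. It ran from 0.00101 to 0.0821 for the neutrophilic one, and neither difference changed sign.

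**Figure D2:**
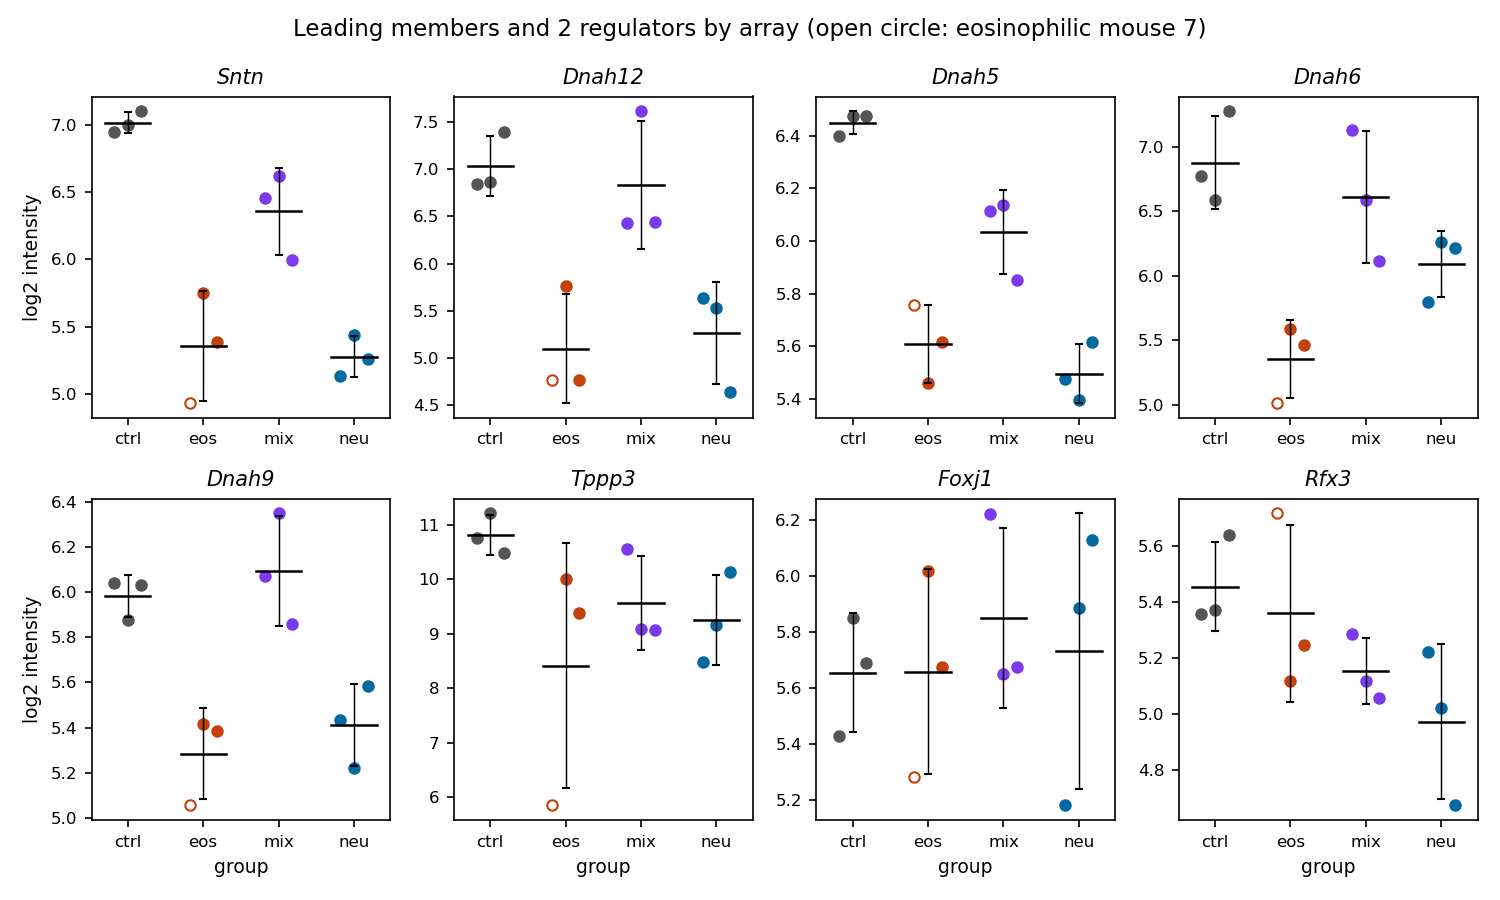
Log2 intensity (vertical axes, each with its own range) of Sntn, Dnah12, Dnah5, Dnah6, Dnah9, Tppp3, Foxj1 and Rfx3 in each mouse by group (control, eosinophilic, mixed, neutrophilic); lines are means, error bars SD over 3 mice, and the open circle is eosinophilic mouse 7. Sntn runs from 6.94 to 7.10 in control and from 5.13 to 5.43 in the neutrophilic mice, while Foxj1 overlaps in all 4 groups.

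Among the outer arm heavy chains, Dnah5 drives the beat along the whole cilium and its loss is the best known cause of primary ciliary dyskinesia. Dnah5 was 6.40, 6.47 and 6.48 in control, 5.76, 5.46 and 5.62 in the eosinophilic, 6.11, 6.14 and 5.85 in the mixed and 5.48, 5.40 and 5.62 in the neutrophilic mice. All 9 HDM mice lay below the control mice, and the mixed mice lay between control and the other groups. In the neutrophilic group the difference was -0.95 (SE 0.23, 1.94-fold, adjusted p = 0.0552), and without mouse 7 it passed the test (SE 0.22, adjusted p = 0.0148). Dnah9, a chain of the outer part of the cilium, was 6.04, 5.88 and 6.03 in control and 6.07, 6.35 and 5.86 in the mixed mice. It was 5.05, 5.42 and 5.38 in the eosinophilic and 5.43, 5.22 and 5.58 in the neutrophilic mice, below all control and all mixed values, but was called in no comparison. Dnah11, the chain paired with Dnah5 near the base, was 5.35, 5.14 and 5.16 in control, 5.14, 4.97 and 4.83 in the mixed and 4.99, 4.79 and 4.52 in the neutrophilic mice, both below control. On the array of eosinophilic mouse 7 Dnah11 read 5.63, above control, against 4.59 and 4.66 in the other eosinophilic mice, which lay below control.

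Inner arm heavy chains shape the bend of the beat. Dnah12 was 6.84, 6.86 and 7.40 in control, 4.76, 5.76 and 4.77 in the eosinophilic, 6.44, 7.62 and 6.44 in the mixed and 5.63, 5.52 and 4.64 in the neutrophilic mice. The eosinophilic and neutrophilic values lay wholly below the control and mixed values, which overlapped each other. Its difference from control was -1.94 in the eosinophilic group (SE 0.42, 3.83-fold, adjusted p = 0.0588; without mouse 7, -1.77 and 0.0688). In the neutrophilic group it was -1.77 (SE 0.42, 3.41-fold, adjusted p = 0.0505), which passed without mouse 7 (SE 0.39, adjusted p = 0.0125). Dnah12 also passed the F test without mouse 7 (adjusted p = 0.0213), with Sntn (0.00387), where 4.60% of all genes did. A second probe set of Dnah12 overlapped control in the eosinophilic and neutrophilic groups and lay above it in the mixed group, at 5.36, 5.01 and 5.35 in control, 4.78, 4.32 and 5.09 in the eosinophilic, 5.51, 5.67 and 5.60 in the mixed and 5.36, 4.96 and 4.94 in the neutrophilic mice.

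Dnah6 was 6.77, 6.59 and 7.28 in control, 5.01, 5.59 and 5.46 in the eosinophilic, 7.13, 6.59 and 6.11 in the mixed and 5.79, 6.26 and 6.22 in the neutrophilic mice. Its eosinophilic values lay below all others, 1.52 below control (SE 0.32, 2.87-fold, adjusted p = 0.0586; without mouse 7, -1.35 and 0.0673). The neutrophilic values also lay below control, and the mixed values overlapped it. All 3 Dnah6 probe sets had eosinophilic and neutrophilic values below control, with differences from -1.52 to -0.80 and from -1.18 to -0.79. The 3 did not share a direction between these 2 groups, with neutrophilic minus eosinophilic differences from -0.24 to 0.74. Of the other inner arm chains, Dnah2 overlapped control in all 3 HDM groups. Dnah1 read 6.30, 4.89 and 5.68 in the eosinophilic mice against 4.83, 5.01 and 4.83 in control, a difference of 0.73 (SE 0.33, adjusted p = 0.175) that was 0.39 without mouse 7 (SE 0.29, adjusted p = 0.498).

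Dnah3 stands for a limit of reading a gene from its brightest probe set. The brightest one read 7.36, 7.45 and 7.47 in control, 7.61, 7.18 and 6.71 in the eosinophilic, 7.83, 8.13 and 7.35 in the mixed and 7.38, 7.29 and 7.21 in the neutrophilic mice. Its values overlapped control in all 3 HDM groups, but without mouse 7 the eosinophilic ones lay wholly below (-0.48, SE 0.28, adjusted p = 0.404). The array holds 33 probe sets for Dnah3, and 31 of the other 32 were lower in the neutrophilic group than in control, with a median difference of -0.55. In the eosinophilic group 25 of these 32 were lower (median -0.39), and without mouse 7 30 of 32 (median -0.73), while in the mixed group 26 were lower (median -0.17). Over all 33, 15 had neutrophilic values wholly below control, where 15.4% of all 34760 probe sets did, and none wholly above. In the eosinophilic group 13 did (11.8% of all probe sets), or 22 without mouse 7 (15.1%), and in the mixed group 5 (10.4%). In a fit over all probe sets 1 of the 33 was called lower in the neutrophilic group (0.409% of all probe sets), 2 without mouse 7 (2.83%), and none in the eosinophilic or mixed group with either set of arrays.

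Mouse by mouse, the median over the 33 Dnah3 probe sets lay 0.80 and 0.63 below the control mean in eosinophilic mice 8 and 9, and 0.30, 0.83 and 0.55 below it in neutrophilic mice 23, 24 and 25. In eosinophilic mouse 7 it was 0.012 below. Mixed mice 15 and 17 lay 0.23 and 0.48 below and mixed mouse 16 lay 0.19 above, while the control mice themselves lay within -0.018 and 0.055. All genes together had medians from -0.068 to 0.022 on the same arrays. The probe sets share 1 gene and are not replicates.

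**Figure D3:**
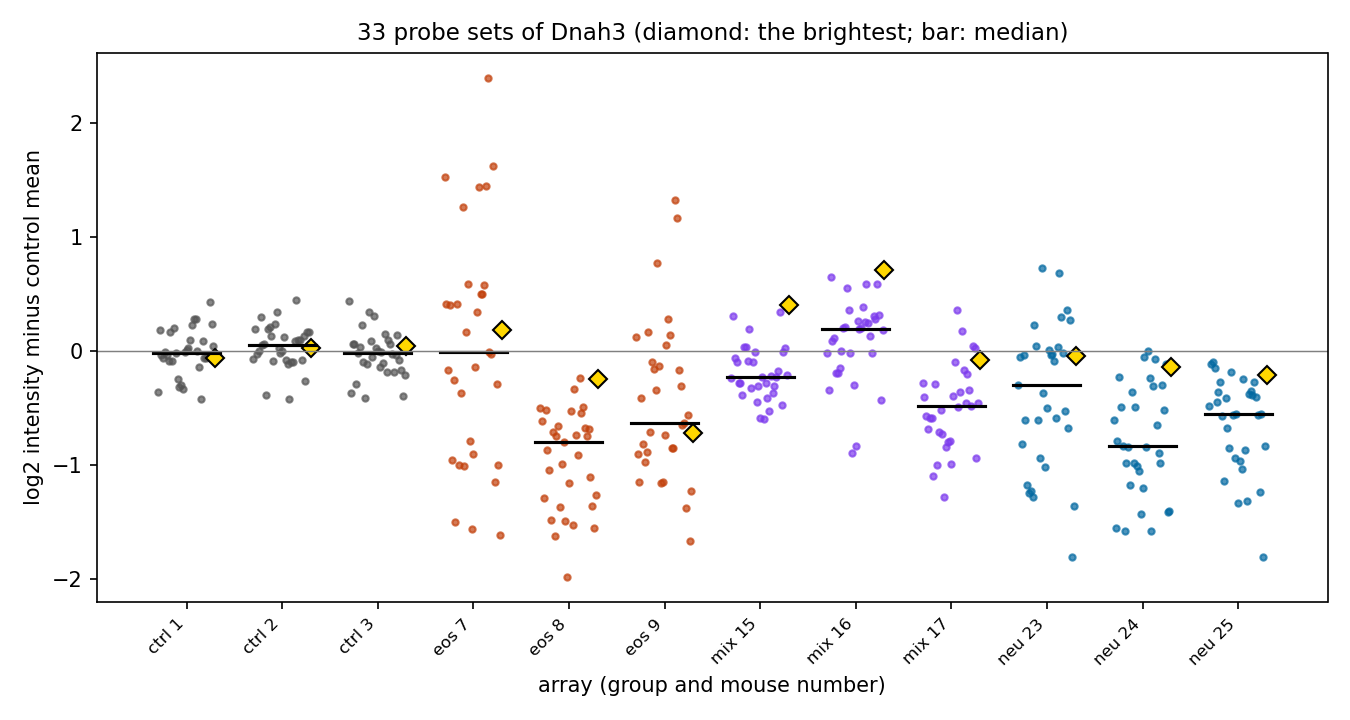
Log2 intensity minus the control mean (vertical axis) for the 33 probe sets of Dnah3 (points) on each array (horizontal axis, by group and mouse number); bars are medians and the diamond is the brightest probe set. All 33 points lie below 0 in eosinophilic mouse 8 and neutrophilic mouse 25, and 32 do in neutrophilic mouse 24, while the diamond stays near 0 in the neutrophilic mice.

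The outer arm docking genes, which anchor the outer row to the doublet, showed no common shift. Ccdc114 was 4.72, 4.74 and 5.16 in control, and its eosinophilic (4.59, 4.42 and 4.54) and neutrophilic (4.52, 4.29 and 4.57) values lay below. Ccdc151 was lowest in the mixed mice, at 4.36, 4.29 and 4.29 against 4.42, 4.56 and 4.82 in control. The brightest probe set of Armc4 overlapped control throughout. A second, dimmer one lay above control in the eosinophilic mice, at 5.19, 4.27 and 4.72 against 3.79, 3.98 and 4.15. Its difference there was 0.75 (0.52 without mouse 7), and it overlapped control in the mixed and neutrophilic groups. The dynein assembly factors, which fold and load the arms in the cytoplasm, were lower on median by 0.50 in the eosinophilic and the neutrophilic group. Of these, Zmynd10 was 5.47, 5.65 and 5.29 in control and 5.18, 5.22 and 4.84 in the eosinophilic mice, and Lrrc6 overlapped control in all groups. No docking gene or assembly factor was called.

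Among the nexin link and ruler genes, Ccdc39, which with Ccdc40 sets the spacing of spokes and inner arms, was 5.46, 5.49 and 5.73 in control. It read 4.47, 4.68 and 5.45 in the eosinophilic, 4.94, 5.32 and 4.83 in the mixed and 4.87, 4.26 and 4.77 in the neutrophilic mice, all below control. None of its differences passed the test with all arrays or without mouse 7. The neutrophilic one was -0.92 (SE 0.31, 1.90-fold, adjusted p = 0.159; without mouse 7, 0.0517), and the mixed one was -0.53 (SE 0.31, adjusted p = 0.888; without mouse 7, 0.490). Among the alternatives, the neutrophilic difference of Ccdc39 was called with the compared groups alone (adjusted p = 0.0423). It was also called without mouse 7 after quantile normalization (adjusted p = 0.0241). Its partner Ccdc40 and Drc1, of the nexin link itself, overlapped control in the 3 HDM groups. The radial spoke head gene Rsph4a was 6.22, 6.29 and 6.36 in control, 5.80, 4.90 and 6.16 in the eosinophilic, 5.87, 5.16 and 4.60 in the mixed and 5.83, 4.90 and 4.95 in the neutrophilic mice. All 9 HDM mice lay below a narrow control group, and the values within each HDM group were spread widely. The difference was -1.08 in the mixed group (SE 0.41, 2.11-fold, adjusted p = 0.418; without mouse 7, 0.193) and -1.06 in the neutrophilic group (SE 0.41, adjusted p = 0.225; without mouse 7, 0.107). With the compared groups alone both differences of Rsph4a were called, with adjusted p = 0.0289 in the mixed and 0.0431 in the neutrophilic group. Nme5, a spoke-associated gene, lay above control in the mixed mice, at 6.39, 6.71 and 6.50 against 6.11, 6.05 and 6.01 in control, a difference of 0.48 (SE 0.34, adjusted p = 1.0), and below control in the neutrophilic mice, at 5.46, 5.44 and 5.97.

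Of the central pair genes, Hydin, which encodes a very large projection protein, was 6.07, 5.95 and 5.92 in control. Its eosinophilic values of 5.21, 5.06 and 5.55 and neutrophilic values of 5.13, 5.36 and 5.57 lay below control, and its mixed values of 6.09, 5.86 and 5.47 overlapped it. Ak7, an adenylate kinase of the cilium, was 7.21, 7.48 and 6.60 in control, 6.53, 6.32 and 5.41 in the eosinophilic and 6.58, 6.30 and 6.51 in the neutrophilic mice. Both groups lay below the lowest control mouse, with eosinophilic mouse 9 the lowest. The eosinophilic difference of Ak7 was -1.01 (SE 0.34, 2.02-fold, adjusted p = 0.119), and without mouse 7 it was -1.24 (SE 0.34, adjusted p = 0.0941). Spag16 and Spag17 overlapped control in each HDM group, and Spag17 read 5.76 on the array of eosinophilic mouse 7 and 4.15 and 4.71 in the other eosinophilic mice.

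The genes of the doublet wall and its lumen gave no shared direction, with medians of 0.071, -0.0057 and -0.13 in the eosinophilic, mixed and neutrophilic groups. Tppp3, a tubulin-binding protein abundant in ciliated cells, was 10.75, 11.20 and 10.47 in control, 5.85, 10.01 and 9.39 in the eosinophilic, 10.56, 9.08 and 9.07 in the mixed and 8.48, 9.15 and 10.13 in the neutrophilic mice. The value of mouse 7 sat far below the rest, and the eosinophilic and neutrophilic mice lay below control with or without it. With all arrays no difference of Tppp3 passed the test, the SE being 0.87: -2.39 in the eosinophilic (adjusted p = 0.130), -1.24 in the mixed (1.0) and -1.55 in the neutrophilic group (0.461). Without mouse 7 the SE was 0.45 and the neutrophilic difference passed (2.94-fold lower, adjusted p = 0.0455), while the eosinophilic one was -1.11 (SE 0.51, adjusted p = 0.295) and the mixed one had an adjusted p of 0.204. Tppp3 is also found outside ciliated cells. The largest positive differences of the eosinophilic group after Dnah1 were not called: Tekt2, a tektin, 0.63 (SE 0.34, adjusted p = 0.224), Spag17 0.55 (SE 0.36, 0.280) and Enkur 0.51 (SE 0.41, 0.367). Without mouse 7 they were 0.49 (adjusted p = 0.491), 0.11 (0.854) and 0.036 (0.961). Enkur was 4.71, 5.36 and 5.02 in the mixed mice and 4.51, 4.19 and 4.56 in control (difference 0.61, SE 0.41, adjusted p = 0.993).

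The transcriptional regulators above these genes gave no call. Foxj1 was 5.43, 5.85 and 5.69 in control, 5.28, 6.02 and 5.68 in the eosinophilic, 6.22, 5.65 and 5.68 in the mixed and 5.18, 5.89 and 6.13 in the neutrophilic mice. The groups overlapped throughout. Its differences from control were 0.0039 in the eosinophilic (95% interval -0.69 to 0.70, adjusted p = 0.993), 0.19 in the mixed (-0.50 to 0.89, 1.0) and 0.076 in the neutrophilic group (-0.62 to 0.77, 0.930). The interval for the neutrophilic group thus reaches down to a change of -0.62 and leaves room for a lower Foxj1 level. Mcidas likewise overlapped, with differences of 0.13, 0.020 and 0.23 (SE 0.34, adjusted p = 0.786, 1.0 and 0.790).

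Rfx3 was 5.36, 5.37 and 5.64 in control, 5.72, 5.12 and 5.25 in the eosinophilic, 5.29, 5.12 and 5.06 in the mixed and 5.22, 5.02 and 4.67 in the neutrophilic mice. Its mixed and neutrophilic values lay below control, by 0.30 and 0.48 on average (SE 0.27, adjusted p = 1.0 and 0.454). Without mouse 7 the other 2 eosinophilic mice were below control as well. Rfx2 was 6.06, 6.14 and 6.43 in control and 5.79, 5.91 and 5.37 in the eosinophilic mice, a difference of -0.52 (SE 0.25, adjusted p = 0.189), and overlapped control in the other groups (-0.21 and -0.068, adjusted p = 1.0 and 0.922). None of the 4 regulators was called in any comparison, with or without mouse 7.

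Of the remaining members, Dynlrb2, a dynein light chain, overlapped control in the eosinophilic group with all arrays and lay wholly below it without mouse 7, at 5.58 and 5.17 against 5.60, 5.66 and 6.05. Ccdc113 overlapped control in the eosinophilic group and lay 0.12 above control in the mixed group with no overlap. Lrriq1 was 4.78, 4.85 and 5.13 in control and 4.21, 4.70 and 4.52 in the neutrophilic mice. Stk33, a kinase, was 4.89, 4.48 and 4.39 in control, 4.34, 4.29 and 4.21 in the mixed and 4.35, 4.10 and 3.83 in the neutrophilic mice. These values lay below control with small differences. Tekt1, Tekt4, Mns1, Efhc2, Rsph1 and Rsph9 overlapped control in every HDM group. The largest positive differences of the neutrophilic group, those of Tekt2, Armc4, Mcidas and Dynlrb2, were 0.22 to 0.37 and had adjusted p values from 0.675 to 0.808. In the mixed group Dnah3 and Rsph1 followed Enkur and Nme5 with 0.34 and 0.23 (adjusted p = 1.0 for both).

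Counted over the list, 13 of 40 members had eosinophilic values wholly below control, 32.5%, where 15.9% of all genes did, and none wholly above (11.1%). With mouse 7 left out it was 17 of 40 (19.2% of all genes) and again none above (14.6%). In the neutrophilic group 16 of 40 lay wholly below (20.4% of all genes) and none wholly above (12.6%). In the mixed group 8 lay below (13.9%) and 3 above (9.16%), those 3 being Nme5, Enkur and Ccdc113. Unadjusted p was under 0.05 and lower for 10 members in the eosinophilic group (17.4% of all genes) and 8 in the neutrophilic group (10.7%). It was under 0.05 and higher for 1 member in the eosinophilic group, Dnah1 (10.8%), and for none in the neutrophilic group (3.96%). The median log2 difference of the 40 was -0.23 in the eosinophilic (-0.29 without mouse 7), -0.061 in the mixed and -0.33 in the neutrophilic group, beside medians over all genes of 0.0058 (0.012), 0.0046 and 0.048.

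Since bright genes read lower on the arrays of small SD, the members were also set beside genes on the same side of the all-gene median mean level of 5.5. The 17 members above it had a median of -0.57 in the neutrophilic group, where all bright genes had -0.32, and the 23 below it -0.14, where all dim genes had 0.23. In the eosinophilic group without mouse 7 these medians were -0.58 beside -0.34 and -0.070 beside 0.25. With mouse 7 they were -0.67 beside -0.70 and -0.042 beside 0.50. In the mixed group the bright members had -0.18 beside -0.13. Among bright genes, 10 of 17 members lay wholly below control in the neutrophilic group, where 34.6% of all bright genes did, and 10 of 17 in the eosinophilic group (29.1%), or 12 of 17 without mouse 7 (31.7%). Among dim genes, 6 of 23 members lay wholly below control in the neutrophilic group, where 6.23% of all dim genes did. The eosinophilic group had 3 of 23 (2.74%), or 5 of 23 without mouse 7 (6.71%). In the mixed group 3 of 17 bright members (21.4%) and 5 of 23 dim ones (6.32%) lay wholly below. Brightness moves with the member counts, and its part in them was not tested further.

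**Figure D4:**
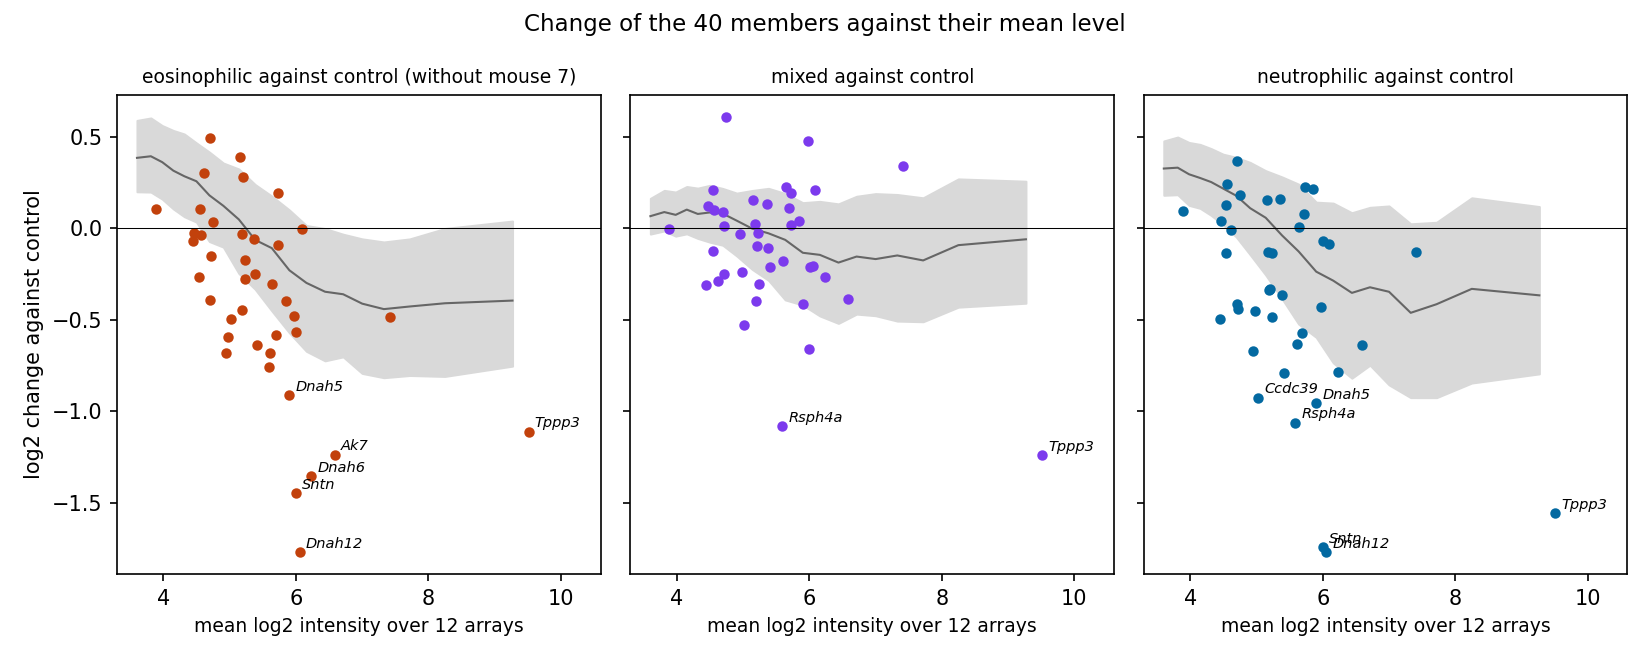
Log2 difference from control (vertical axes) of the 40 members (points) against their mean log2 intensity over the 12 arrays (horizontal axes) in the eosinophilic group without mouse 7, the mixed group and the neutrophilic group; the grey line and band are the median and the quartiles of all genes of like mean level. Sntn and Dnah12 lie far below the band in the eosinophilic and neutrophilic panels, at -1.45 and -1.77 and at -1.74 and -1.77, and most members of the mixed panel lie within or near it.

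The HDM groups were also compared with each other. No member passed the test between any of these groups, with all arrays or without mouse 7. Between the mixed and eosinophilic groups 0.00502% of all genes were called higher and 0% lower. Between the neutrophilic and eosinophilic groups 0.11% were called higher and 0.00502% lower, and between the intranasal groups 0% either way. Against the eosinophilic group, the mixed group, which received the low dose without alum and injection, was wholly higher for 9 members (6.91% of all genes) and wholly lower for 1, Ccdc151 (6.14%). At an unadjusted p under 0.05 the mixed group was higher for 5 members (9.84%) and lower for 1 (6.82%). The 9 that did not overlap were Dnah5, Dnah9, Dnah6, Dnah12, Ccdc114, Lrrc6, Nme5, Tekt4 and Sntn. With mouse 7 left out there were 14 higher (9.33%) and 1 lower (8.76%). The largest were Dnah12, 1.73 higher in the mixed group (SE 0.42, 3.33-fold, adjusted p = 0.295), Dnah6, 1.26 (SE 0.32, 0.295), Tppp3, 1.15 (SE 0.87, 0.416), and Sntn, 1.0 (SE 0.28, 0.295). Without mouse 7 Tppp3 was -0.13 (adjusted p = 0.957), while Dnah12, Dnah6 and Sntn were at 1.57, 1.09 and 0.79 (adjusted p = 0.423, 0.514 and 0.598). The members lower in the mixed group were led by Ccdc151, -0.65 (SE 0.27, adjusted p = 0.295), Tekt2, -0.62 (SE 0.34, 0.324), Dnah1, -0.58 (SE 0.33, 0.330), and Stk33, -0.56 (SE 0.33, 0.335). Without mouse 7 Ccdc151, Tekt2, Dnah1 and Stk33 were at -0.59, -0.48, -0.24 and -0.24 (adjusted p = 0.685, 0.751, 0.843 and 0.845).

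Between the intranasal groups, which differ in dose, 7 members were wholly lower in the neutrophilic than in the mixed mice (9.37% of all genes) and 1 wholly higher (4.67%). At an unadjusted p under 0.05, 5 were lower (2.55%) and none higher (0.552%). The 7 that did not overlap were Dnah5, Dnah9, Dnah12, Ccdc114, Lrrc6, Nme5 and Sntn, and the other was Ccdc151. Dnah12 was 1.57 lower at the high dose (SE 0.42), Sntn 1.08 (SE 0.28), Nme5 0.91 (SE 0.34) and Dnah9 0.68 (SE 0.25), with an adjusted p of 1.0 for each. Without mouse 7, an array outside this comparison, the adjusted p values of Dnah12, Sntn, Nme5 and Dnah9 were 0.439, 0.382, 0.562 and 0.533. The members higher at the high dose were led by Tekt2, 0.35 (SE 0.34), Ccdc151, 0.28 (SE 0.27), Mcidas, 0.20 (SE 0.34), and Dynlrb2, 0.18 (SE 0.35), each again with an adjusted p of 1.0.

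Between the neutrophilic and eosinophilic groups 2 members were wholly higher in the neutrophilic mice, Rfx2 and Dnah6 (4.21% of all genes), and none wholly lower (3.99%). For Dnah6 this holds for the brightest probe set only, as 2 of its 3 probe sets had a negative difference here (range -0.24 to 0.74). At an unadjusted p under 0.05, 1 was higher (6.42%) and 1 lower (3.83%). Without mouse 7 there were 4 higher (7.29%) and 1 lower, Tekt1 (8.56%). Sntn differed by -0.081 between these groups (95% interval -0.69 to 0.53, adjusted p = 0.909), and by -0.29 without mouse 7 (adjusted p = 0.870). The members higher in the neutrophilic mice were led by Tppp3, 0.84 (SE 0.87, adjusted p = 0.678), Dnah6, 0.74 (SE 0.32, 0.481), Rfx2, 0.45 (SE 0.25, 0.516), and Ak7, 0.38 (SE 0.34, 0.634). Without mouse 7 Tppp3 was at -0.44, and Dnah6, Rfx2 and Ak7 were at 0.57, 0.50 and 0.60 (adjusted p = 0.896, 0.740, 0.709 and 0.731). Those lower were led by Stk33, -0.74 (SE 0.33, adjusted p = 0.482), Dnah1, -0.58 (SE 0.33, 0.521), Spag17, -0.42 (SE 0.36, 0.617), and Efhc2, -0.41 (SE 0.32, 0.590). Without mouse 7 Stk33 and Dnah1 were at -0.42 and -0.24 (adjusted p = 0.806 and 0.900), and Spag17 and Efhc2 at 0.020 and -0.012 (0.996 for both). The members' median was 0.15 for mixed minus eosinophilic, -0.21 for neutrophilic minus mixed and -0.064 for neutrophilic minus eosinophilic (0.0064 without mouse 7).

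A wider set of 94 measured motile cilia genes outside the list, from regulators to the axoneme wall, gave few calls as well. With all arrays 1 was lower in the eosinophilic group and none in the mixed or neutrophilic group, and none was higher. Cfap44, a protein of the axoneme that tethers inner arms, was 6.60, 6.42 and 6.53 in control, 4.57, 4.78 and 5.16 in the eosinophilic, 6.05, 6.44 and 6.08 in the mixed and 5.24, 5.51 and 5.80 in the neutrophilic mice. It fell by 1.68 in the eosinophilic group (SE 0.27, adjusted p = 0.0373; without mouse 7, -1.55 and 0.0184). Without mouse 7, 6 of the 94 were called lower in the neutrophilic group, where 7.23% of all genes were: Cfap44 (-1.0, adjusted p = 0.0214), the tektin Tekt5 (-1.28, 0.0183), Spag6l of the central pair (-1.0, 0.0194), Gstt3 (-1.07, 0.0421), the light chain Dnal1 (-0.85, 0.0485) and Myb, which acts early in multiciliated commitment (-0.94, 0.0452). Tekt5 was then also lower in the mixed group (-1.21, SE 0.30, adjusted p = 0.0485). The medians of the 94 were -0.11, -0.045 and -0.21 in the eosinophilic, mixed and neutrophilic groups, and the eosinophilic one was -0.23 without mouse 7. Of the 94, 16, 11 and 19 lay wholly below control in these groups, where 15.9%, 13.9% and 20.4% of all genes did, and 3, 4 and 8 wholly above (11.1%, 9.16% and 12.6%). In the eosinophilic group without mouse 7, 32 lay wholly below (19.2%) and 4 wholly above (14.6%). The 12 other regulators among them had medians of 0.28 (0.086 without mouse 7), 0.10 and -0.013.

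The transport machinery that builds both motile and primary cilia is not limited to ciliated cells. Of its 26 genes none was called with all arrays, and without mouse 7 5 were lower in the neutrophilic group, where 7.23% of all genes were. Kifap3, the adaptor of the anterograde kinesin, was 6.50, 6.50 and 6.44 in control and 5.41, 5.19 and 5.23 in the neutrophilic mice, a difference of -1.20 (SE 0.22, adjusted p = 0.00515). The other 4 were Ift172, Ift80, Kif3a and Wdr35, from -1.07 to -0.84. Medians of the 26 were -0.41, -0.35 and -0.63 in the eosinophilic, mixed and neutrophilic groups, further from 0 than those of the 40 members, a difference that was not tested. Of the 26, 3, 11 and 15 lay wholly below control, where 15.9%, 13.9% and 20.4% of all genes did. The eosinophilic median without mouse 7 was -0.52, with 8 wholly below (19.2%).

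Marker genes of other airway and lung cell types were measured beside the cilia genes. The summed linear intensity of 6 club cell genes ran from 30980 to 40480 in control, from 19610 to 32820 in the mixed and from 19530 to 24650 in the neutrophilic mice. In the eosinophilic mice it was 372.8 on the array of mouse 7 and 15990 or more on the others. Their median differences were -1.95 (-0.98 without mouse 7), -0.37 and -1.18, with 1 gene called lower in each HDM group (3 in the neutrophilic group without mouse 7). The 7 goblet cell genes summed to 215.9 to 312.0 in control, 4356 to 5583 in the mixed and 3661 to 4324 in the neutrophilic mice. In the eosinophilic mice they summed to 338.1 on the array of mouse 7 and to 2047 and 3048 on the others. Of the 7, 3 were called higher in the mixed and 3 in the neutrophilic group, and without mouse 7 it was 4 in the eosinophilic, 5 in the mixed and 5 in the neutrophilic group. Of all 19937 genes 99, 94 and 421 were called in either direction in the eosinophilic, mixed and neutrophilic groups. Without mouse 7 these counts were 266, 596 and 1889. No pan-epithelial gene of 8 was called, and their medians were -0.85 (-0.24 without mouse 7), 0.26 and 0.0045. Endothelial genes summed to 9749 to 12590 in control, 4661 to 8544 in the mixed and 3884 to 6312 in the neutrophilic mice, and to 583.1 in eosinophilic mouse 7 and 6156 and 6867 in the other eosinophilic mice. Alveolar type 1 genes summed to 6522 to 8006 in control, 4330 to 6034 in the mixed and 3485 to 5335 in the neutrophilic mice, and to 385.8, in mouse 7, 2947 and 5791 in the eosinophilic mice. Both sums lay below control in every HDM mouse, but other sums did not. Alveolar type 2 sums were 38800 to 49000 in control, 35200 to 54490 in the mixed and 23340 to 40340 in the neutrophilic mice. Smooth muscle sums were 1870 to 2661, 2119 to 2600 and 1193 to 2039 in these groups. Alveolar macrophage sums were 2553 to 3282, 4238 to 5775 and 3319 to 4459. In the eosinophilic mice other than mouse 7 these lists summed to 22020 to 44340, 1880 to 3207 and 4540 to 5868. Neutrophil genes summed to 537.1 to 916.5 in control, 2844 to 4170 in the mixed and 2028 to 4669 in the neutrophilic mice, and to 450.4 in eosinophilic mouse 7 and 1130 and 2608 in the other eosinophilic mice. Of 6 sperm and testis genes none was called, and their sums stayed from 100.6 to 204. The part of these cell types in the cilia result was not tested.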

How the data were processed

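The deposited values are log2 intensities. Per the submitters' processing notes, RMA was run in Expression Console (versions not given in the sources used here); labelling began with 300 ng of RNA per the labels. RMA corrects background, normalizes between arrays and summarises probes, yet the arrays' quartiles differed. No detection calls were used.

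Of 34760 probe sets, 21640 had 1 gene symbol, 1321 several (unnamed here) and 11799 were not listed; the brightest stood for each of 19937 genes. limma 3.58.1 in R 4.3.3 fitted a mean per group to all 12 arrays (eBayes without trend), two-sided, with Benjamini-Hochberg adjustment over all genes and a threshold of 0.05. SE and intervals come from that fit, which pools the spread over groups, and the number of arrays limits precision. Every fit was repeated without eosinophilic mouse 7. The script was tested on simulated data.

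Of 209 other listed genes 199 were measured. The members and lists were chosen with earlier results of these data known. Fold changes with tests are printed for members past the threshold, the 4 largest positive and negative differences in each comparison, the 4 regulators and Sntn, and, outside that rule, for some differences of Dnah3, Ccdc39 and Dnah5. Promoters are RefSeq's. Alternatives were other scalings, a filter on dim genes (log2 of 5 on 3 arrays), trend and robust variances, only the groups compared, means of probe sets, and arrays left out.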

Additional observations from a re-analysis of the deposited data

Results flagged for a closer look

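A probe set of Dnah3 that the choice of the brightest probe set left out was lower in the neutrophilic group. It read 7.11, 7.04 and 6.48 in control and 5.07, 5.46 and 5.07 in the neutrophilic mice, a difference of -1.67 (SE 0.34, adjusted p = 0.0480 in limma over all 34760 probe sets; 0.0121 without eosinophilic mouse 7). In the eosinophilic mice it read 5.88, 5.32 and 5.21, and in the mixed mice 6.90, 6.45 and 5.94. It was singled out because it lay outside the values used for the comparisons and passed the test against control. Groups of 3 mice were not screened for single outlying values.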

How the results depend on the processing

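No paired analysis was possible because the groups share no replicate numbers. Counts are members called, of 40, with 1 in the eosinophilic, 0 in the mixed and 1 in the neutrophilic comparison with control, 0 between HDM groups and 1 in the F test. Without mouse 7 the neutrophilic count was 4 and the F test 2. With quantile normalization added, an alternative chosen after seeing the data, 4 were called in the neutrophilic comparison as well. Of all 19937 genes 1889 and 2018 were called in that comparison under these settings. Leaving out eosinophilic mice 7 and 9 and neutrophilic mouse 23 left a lone eosinophilic array. The counts and adjusted p values of that fit are therefore not given, also for comparisons without the eosinophilic group. With only the groups compared the counts were 0 in the eosinophilic, 2 in the mixed and 6 in the neutrophilic comparison. Shares of all genes for those fits, and for most fits with 1 array left out, are not given here. Median centring gave 0 in the eosinophilic group and moved the median of all genes to 0.12 in the neutrophilic one. Quantile normalization of all arrays gave 0 in the eosinophilic, 0 in the neutrophilic comparison and 0 in the F test. The filter on dim genes (13370 genes, 31 members) gave 3, 3 and 2 for these, and trend and robust variances 3, 3 and 3. Over all genes the filter called 237 in the eosinophilic and 568 in the neutrophilic comparison. Trend and robust variances called 285 and 694 of 19937. Leaving out 1 array at a time gave 0 to 11 in the eosinophilic, 0 to 0 in the mixed and 0 to 4 in the neutrophilic comparison, 0 to 9 for mixed against eosinophilic, 0 to 2 for neutrophilic against eosinophilic, 0 to 0 for neutrophilic against mixed and 0 to 6 in the F test. The highest count came without eosinophilic mouse 8, which leaves the arrays of mice 7 and 9, with 7 lower and 4 higher where 23.6% and 17.8% of all genes were called. The causes were not tested, beyond the fewer genes of the filter. Of 878 values of named members under an alternative, 781 kept their direction and side of the threshold, 11 lost and 40 gained a call, none called turned sign, and 46 called in neither setting had the opposite sign. The median of the members in the neutrophilic group was -0.19 without mouse 24. In the eosinophilic group it was -0.37 under the filter on dim genes, and -0.37 without mouse 7 after quantile normalization. For mixed against eosinophilic it was 0.31 under the filter, and 0.30 without mouse 7 after quantile normalization and 0.24 with it. It was 0.27 without eosinophilic mice 7 and 9 and neutrophilic mouse 23, 0.057 without mixed mouse 16 and 0.25 without mixed mouse 17. For neutrophilic against mixed it was -0.12 without neutrophilic mouse 25 and -0.31 without neutrophilic mouse 23. In the mixed group it ran from -0.093 (filter) to -0.012 (without mixed mouse 17), and for neutrophilic against eosinophilic from -0.10 (without neutrophilic mouse 23) to 0.060 (filter). No depth is defined for arrays; 9 members did not reach the filter's log2 of 5 on 3 arrays.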
